A study of Mus musculus with 2 samples.

Results

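The Obox genes are the oocyte-specific homeobox family of the mouse, a cluster of close copies on chromosome 7 that encode homeodomain proteins. The 5 members followed here, Obox1, Obox2, Obox3, Obox5 and Obox6, were chosen by gene symbol alone, matched to the Ensembl gene identifiers of the deposited count table. They are 5 of the 36227 genes listed in that table and of the 18017 genes for which it gives counts. The same search by symbol found 2 more genes with counts, Obox7 and the pseudogene Obox3-ps8, which share sequence with the members and are shown beside them. In the GENCODE vM21 annotation of build GRCm38, 55 genes carry an Obox symbol, of which 7 are protein-coding and 48 are pseudogenes or non-coding genes. Of these 55, 53 lie on chromosome 7, spread over 1.508 Mb. Of the 55, 48 are absent from the deposited count table, among them the protein-coding Obox8, so no level is given for them.

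With sequencing of mRNA, transcripts were counted in oocytes of a slimming group and of a control group of female ICR mice, an outbred strain. All mothers had grown obese by 12 weeks of age under standard housing. The slimming mothers then spent 4 weeks in an enriched environment (EE cages, described by the labels as inducing slimming), while the control mothers, labelled as fed a standard diet, stayed in normal cages, and oocytes were taken at 16 weeks. From each group, 3 mice gave 3 naturally ovulated oocytes each, and the 9 oocytes, arrested at metaphase of the second meiotic division (MII), were lysed together and made into 1 library. The comparison addresses how maternal slimming relates to the mRNA that the egg carries. The slimming library held 20947962 counts and the control library 20242289 counts. With 1 library per group there is no replicate error and no test, and each difference below describes these libraries and not the conditions; “slimming oocytes” and “control oocytes” stand for the 1 library of each. A pool of oocytes also does not tell apart fewer cells with a transcript and less of it per cell.

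The cells carried the marks of oocytes in both libraries. All 10 oocyte markers, among them the growth factor Gdf9 and the zona pellucida gene Zp3, were expressed, with a summed level of 103876 CPM (counts scaled by library size) in slimming oocytes and 104310 CPM in control oocytes, most of it from Gdf9 and H1foo. The zona genes were higher in slimming oocytes, Zp3 with 2449.6 CPM against 1172 CPM in control oocytes, Zp1 with 549 against 279 CPM in control oocytes and Zp2 with 283 against 158 CPM in control oocytes. Single levels ran between 179.7 and 44674 CPM in slimming oocytes, and between 158 and 45613 CPM in control oocytes. The markers of other cells were far lower. The 12 cumulus and granulosa markers summed to 36.6 CPM in slimming oocytes and 45.4 CPM in control oocytes. The aromatase gene Cyp19a1 gave most of this, 34.5 CPM in slimming oocytes and 39.2 CPM in control oocytes. Of the 12, 5 (Amh, Amhr2, Foxl2, Fshr and Ptx3) had no count in either library. Another 4 had counts in control oocytes alone, led by Inha with 0 counts in slimming and 63 in control oocytes. Kitl was higher in slimming oocytes, with 39 counts against 25 in control oocytes, as was Has2 with 5 against 2. The 8 immune markers summed to 25.8 CPM in slimming oocytes and 42.4 CPM in control oocytes. H2-Aa gave most of this, with 374 counts in slimming and 550 in control oocytes. Of the 8, 4 had counts in control oocytes alone, led by Fcer1g with 0 counts in slimming and 62 in control oocytes. Laptm5 was higher in slimming oocytes, with 86 counts against 75 in control oocytes. The 5 oviduct markers summed to 5.68 CPM in slimming and 11.5 CPM in control oocytes. Tppp3 gave most of this, with 93 counts in slimming and 210 in control oocytes. Ovgp1 and Pax8 had counts in control oocytes alone, and Foxj1 had none in either library. Dnah5 was higher in slimming oocytes, with 26 counts against 15 in control oocytes. The 5 sperm markers summed to 20.5 CPM in slimming and 22.2 CPM in control oocytes. Prm2 gave most of this, with 415 counts in slimming and 450 in control oocytes. Odf1 had 14 counts in slimming oocytes and 0 in control oocytes, and Prm1, Tnp1 and Tnp2 had none in either library. Of 5 red cell markers, 3 were matched by symbol, and none of these had a count. The part of such other cells in the results below was not tested.

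A homeodomain is a DNA-binding fold that many developmental transcription factors share, and the homeobox is the stretch of DNA that encodes it. A mature mouse egg makes almost no new RNA and relies on transcripts stored while it grew, until the embryo switches on its own genome after fertilization. In the mouse, Obox1, Obox2, Obox5 and Obox7 are known as genes whose transcripts the egg stores, whereas Obox3 is known as a gene switched on in the early embryo. Obox factors are known in the mouse for a role, shared among the copies, in activation of the zygotic genome. Obox6 is the most diverged of the protein-coding genes shown here, and it is known from work on reprogramming of mouse cells to pluripotency.

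The nearness of the copies sets how well their counts can be told apart, so the coding sequence of the homeobox is shown first. The stretches below were read from the GENCODE vM21 transcripts 5′ to 3′ on the coding strand. They lead up to and end in the bases that in Obox1 are the conserved codons for the DNA-contacting helix. The bases of the other genes were taken by alignment, without regard to reading frame. Capitals mark bases that differ from Obox1. Each stretch spans an exon junction, so its genomic span is longer than its 105 bases, or 104 in Obox2. On GRCm38 the spans are chr7:15555623-15556173 on the plus strand for Obox1, chr7:15397306-15397856 on the plus strand for Obox2 and chr7:15757997-15758561 on the plus strand for Obox5. They are chr7:14664498-14665290 on the plus strand for Obox7, chr7:15626303-15626877 on the minus strand for Obox3 and chr7:15833928-15834461 on the minus strand for Obox6. All are coding exons.
Obox1: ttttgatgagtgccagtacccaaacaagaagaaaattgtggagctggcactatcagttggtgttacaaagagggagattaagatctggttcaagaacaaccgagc
Obox2: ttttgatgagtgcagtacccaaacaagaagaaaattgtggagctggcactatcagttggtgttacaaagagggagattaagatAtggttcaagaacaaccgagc
Obox5: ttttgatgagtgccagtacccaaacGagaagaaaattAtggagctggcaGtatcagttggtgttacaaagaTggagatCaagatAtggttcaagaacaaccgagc
Obox7: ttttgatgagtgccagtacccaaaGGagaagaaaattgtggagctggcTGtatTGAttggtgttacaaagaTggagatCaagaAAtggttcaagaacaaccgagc
Obox3: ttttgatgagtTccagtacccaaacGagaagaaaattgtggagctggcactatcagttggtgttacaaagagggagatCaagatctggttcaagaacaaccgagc
Obox6: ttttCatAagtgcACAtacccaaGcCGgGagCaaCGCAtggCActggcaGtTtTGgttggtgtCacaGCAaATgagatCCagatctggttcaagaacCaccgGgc

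Within this stretch Obox3 differed from Obox1 at 3 bases, Obox5 at 6, Obox7 at 11 and Obox6 at 30. Obox2 differed at 1 base and also lacked 1 base that Obox1 has, so that its stretch is 104 bases long. Both stretches start at coding base 336, and the missing base lies before the helix codons. The bases aligned to those codons are therefore out of frame in the annotated coding sequence of Obox2. That coding sequence is 453 bases, whereas that of Obox1 is 612 bases. Over the aligned coding sequences, Obox1 and Obox2 were identical at 446 of 453 bases, or 98.5%. Obox5 was closest to Obox7, at 96.0%, and then to Obox1, at 95.6%. Obox3 matched Obox1 at 94.0% and Obox5 at 93.9% of the aligned bases. Obox6 stood apart from all of them, between 73.7% identity with Obox2 and 79.8% identity with Obox5.

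The likeness extends upstream of the genes. The RefSeq promoter windows of GRCm38.p6, which run from 250 bases before to 50 bases after the annotated start, were found for Obox1, Obox2, Obox3, Obox5 and Obox7. A block of 87 bases that ends in a TATA-like run is printed for the 3 genes whose block lies wholly before the start, to show how alike the upstream sequence is in Obox1 and Obox5, which were abundant, and in Obox3, which was not. The blocks lie at chr7:15547159-15547245 on the plus strand for Obox1, chr7:15750260-15750346 on the plus strand for Obox5 and chr7:15639800-15639886 on the minus strand for Obox3. They end 12 bases before the RefSeq start of Obox1, 24 before that of Obox5 and 23 before that of Obox3. Capitals again mark bases that differ from Obox1.
Obox1: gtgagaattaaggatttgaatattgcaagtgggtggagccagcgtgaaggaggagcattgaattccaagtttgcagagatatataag
Obox5: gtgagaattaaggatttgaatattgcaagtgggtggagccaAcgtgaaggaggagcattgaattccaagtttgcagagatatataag
Obox3: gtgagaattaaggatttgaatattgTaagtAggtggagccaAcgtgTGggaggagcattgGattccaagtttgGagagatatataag

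The blocks of Obox1 and Obox5 differed at 1 base and those of Obox1 and Obox3 at 7. The letters TATATAAG, searched on both strands, occurred in the windows of Obox1, Obox3, Obox5 and Obox7 and not in that of Obox2, against 331 of all 32851 promoter windows (1.01%). The homeodomain core letters TAATTA and TAATTG, also searched on both strands, were in none of the 5 windows, while 5.29% of all windows held the one and 8.0% the other. These are matches of letters in a window and say nothing of binding. Over the aligned bases of the windows, Obox1 was identical to Obox2 at 100% of 203 bases, to Obox5 at 95.5% and to Obox3 at 73.4%. The Obox1 and Obox2 windows thus aligned over part of their length only. Whether the letters TATATAAG lie just outside the Obox2 window was not tested.

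Of the 5 members, Obox1 and Obox5 were abundant in both libraries and the other 3 were nearly empty. Calling a gene expressed at 10 CPM or more in at least 1 library, 2 of the 5 members passed, among 5714 expressed genes in the table. Obox5 (ENSMUSG00000074366, chr7:15750131-15759800, plus strand) had 20911 counts, or 998 CPM, in slimming oocytes and 18516 counts, or 915 CPM, in control oocytes. Obox1 (ENSMUSG00000054310, chr7:15388948-15556866, plus strand) had 10765 counts, or 514 CPM, in slimming oocytes and 11981 counts, or 592 CPM, in control oocytes. Obox7 (ENSMUSG00000055942, chr7:14659496-14665996, plus strand), the third abundant gene of the family, had 4322 counts, or 206 CPM, in slimming oocytes and 5194 counts, or 257 CPM, in control oocytes. All 3 were thus present in the eggs of both groups, with Obox5 higher and Obox1 and Obox7 lower in slimming oocytes.

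The remaining 3 members held few counts. Obox6 (ENSMUSG00000041583, chr7:15833241-15839678, minus strand) had 28 counts, or 1.34 CPM, in slimming oocytes and 30 counts, or 1.48 CPM, in control oocytes. Obox3 (ENSMUSG00000066772, chr7:15479825-15639902, minus strand), the embryonic gene, had 4 counts in each library, or 0.191 CPM in slimming oocytes and 0.198 CPM in control oocytes. Obox2 (ENSMUSG00000074369, chr7:15388721-15398545, plus strand), which is known as a stored transcript like Obox1, had 1 count in slimming oocytes and 0 in control oocytes. A count of 0 allows up to 3 counts, which is 0.148 CPM in control oocytes, and 3 counts are 0.143 CPM in slimming oocytes, so Obox2 was at or under the floor in both. The pseudogene Obox3-ps8 (ENSMUSG00000044538, chr17:36452294-36453253, minus strand), a copy outside the cluster, had 282 counts, or 13.5 CPM, in slimming oocytes and 182 counts, or 8.99 CPM, in control oocytes.

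**Figure D1:**
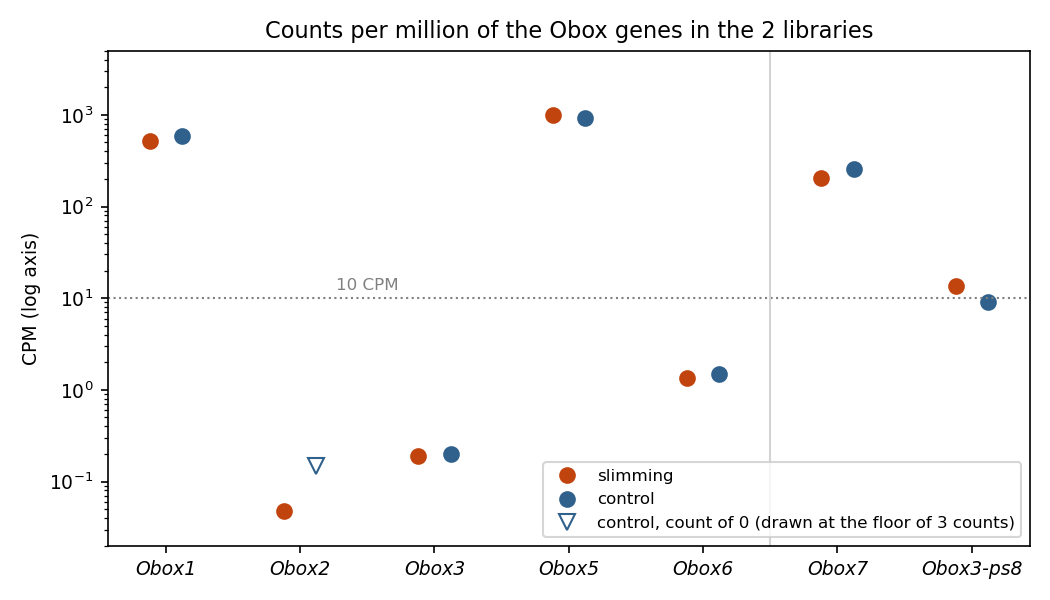
CPM on a log axis for the 7 Obox genes with counts, with the slimming library (orange) left of the control library (blue) for each gene. The 5 members stand left of the grey line. An open triangle marks the count of 0 for Obox2 in control oocytes, drawn at the floor of 3 counts, and the dotted line marks 10 CPM; Obox1, Obox5 and Obox7 lie far above it in both libraries, Obox2, Obox3 and Obox6 far below.

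Levels of different genes were set in order per length, as CPM divided by the length in kb of the longest annotated transcript. Obox5 came first, with 545 CPM per kb in slimming oocytes and 500 CPM per kb in control oocytes. Obox1 was next, with 340 CPM per kb in slimming oocytes and 391 CPM per kb in control oocytes. Obox7 followed, with 140 CPM per kb in slimming oocytes and 174 CPM per kb in control oocytes. Far below these, the pseudogene Obox3-ps8 had 14.0 CPM per kb in slimming oocytes and 9.37 in control oocytes. Obox6 had 0.995 CPM per kb in slimming oocytes and 1.10 in control oocytes. Obox3 had 0.0835 CPM per kb in slimming oocytes and 0.0864 in control oocytes, and Obox2 0.0327 in slimming oocytes and 0 in control oocytes. The order was the same in both libraries. The exact Poisson interval of the Obox3 count, 1.09 to 10.2 in each library, overlapped that of Obox2, 0.0253 to 5.57 in slimming oocytes, and held the floor of 3 counts of Obox2 in control oocytes, so these neighbours in the order were not separated beyond counting error. The interval of Obox6, 18.6 to 40.5 counts in slimming oocytes and 20.2 to 42.8 in control oocytes, lay above both. Such intervals cover counting error only, since copies made by PCR were not marked.

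How reads with several matches were counted is not given in the sources used here, so the sequence that could be assigned to each gene was measured. Every 50-base word of the annotated transcripts was looked up in all other genes, and a word found in no other gene was called its own. Obox1 and Obox2 are the closest pair, sharing 1033 words, which is 56.4% of the words of Obox1 and 62.7% of those of Obox2. Of the 1832 words of Obox1, 57.4% were shared with some other Obox gene, and of the 1647 words of Obox2, 65.1% were. By contrast 18.1% of the words of Obox5 were shared, 21.1% of those of Obox7, 20.2% of those of Obox3 and 5.02% of those of Obox6. With 35-base words, 33.0% of the words of Obox5, 39.4% of those of Obox7 and 10.9% of those of Obox6 were shared.

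Obox2 nevertheless has 574 words of its own, and Obox1 has 780. Set against those, the counts came to 1380 per 100 own words for Obox1 in slimming oocytes and 1536 in control oocytes. For Obox2 they came to 0.174 in slimming oocytes and 0 in control oocytes. Obox5 had 1181 counts per 100 own words in slimming oocytes and 1046 in control oocytes, Obox7 336 in slimming and 403 in control oocytes, and Obox6 2.28 in slimming and 2.44 in control oocytes. The order Obox1 over Obox5 on this scale is the reverse of that per kb, in both libraries, since fewer of the Obox1 words are its own. All counts of a gene were divided by its own words alone, so this scale gives a level only if reads of shared words were not counted. Whether they were is not known, so the order of Obox1 and Obox5 is not settled. The GENCODE span of Obox1 also takes in that of Obox2 nearly whole, and annotated exons of the pair overlap by 59 bases on the same strand. Whether reads from Obox2 were counted under Obox1 was not tested, and the Obox1 values are best read as those of the pair. Obox5 and Obox7 share 280 words, which is 13.0% of the words of Obox5 and 17.1% of those of Obox7.

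**Figure D2:**
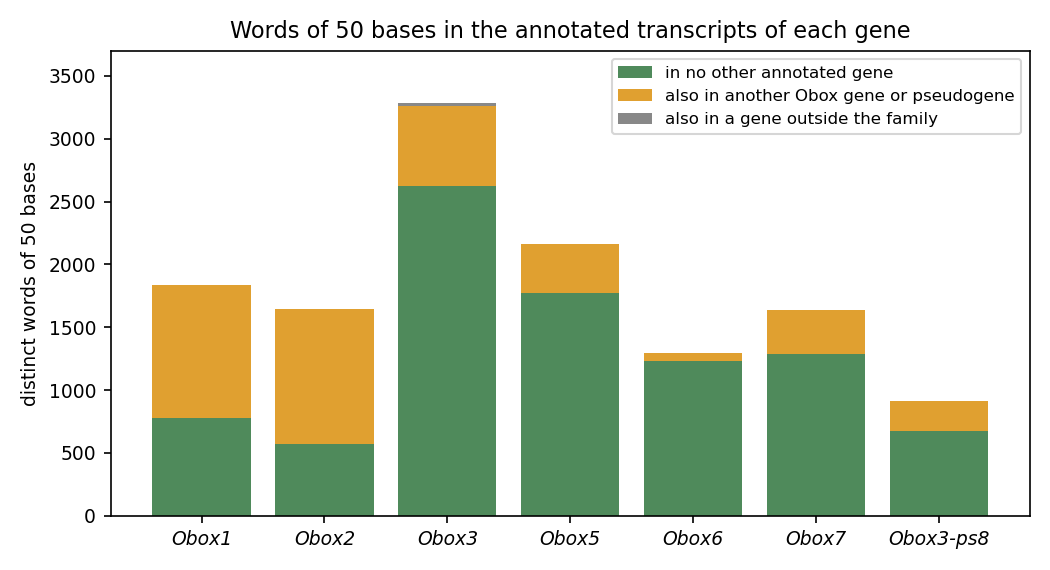
Number of distinct 50-base words in the transcripts of each Obox gene, stacked as words in no other gene (green), also in another Obox gene (yellow) and also in a gene outside the family (grey). Obox1 and Obox2, with 57.4% and 65.1% of their words shared, are the least separable, and Obox6, with 5.02% shared, the most.

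Between the groups, no expressed member was 2-fold apart. Among all 5714 expressed genes, 4.67% differed 2-fold or more, 2.73% being higher and 1.94% lower in slimming oocytes, and 0 of the 2 expressed members did. Obox1 was 1.18-fold lower in slimming oocytes, a log2 ratio of slimming over control of -0.24 with a 95% counting interval of -0.27 to -0.20. Obox5 was 1.07-fold higher, with a log2 ratio of 0.095 (interval 0.066 to 0.12). Obox7 was 1.27-fold lower, with a log2 ratio of -0.35 (interval -0.40 to -0.29). Each of these intervals excludes 0, so the libraries differ by more than counting error for these genes. Intervals of genes with this many counts are narrow, and the share of all expressed genes whose interval excludes 0 was not computed. The spread between mice or between amplifications is not known.

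For scale, the log2 ratios of the expressed genes had a median of 0.015 and an SD of 0.49. An absolute log2 ratio larger than that of Obox1 was found for 54.5% of expressed genes, larger than that of Obox5 for 80.3% and larger than that of Obox7 for 38.6%. Among the 1536 genes that averaged at least 100 CPM, where counting error is small, the SD was 0.34 and the shares were 43.8% for Obox1, 75.8% for Obox5 and 26.6% for Obox7. The abundant Obox genes thus lay inside the bulk of the genes. The members with few counts had wide intervals that include 0. Obox6 had a log2 ratio of -0.18 (interval -0.98 to 0.61) and Obox3 one of -0.081 (interval -2.51 to 2.34), and no ratio is given for Obox2. The pseudogene Obox3-ps8 had a log2 ratio of 0.55 (interval 0.28 to 0.83), 1.46-fold higher in slimming oocytes, and 19.4% of expressed genes had a larger absolute ratio; 25.9% of its words occur in other Obox genes.

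**Figure D3:**
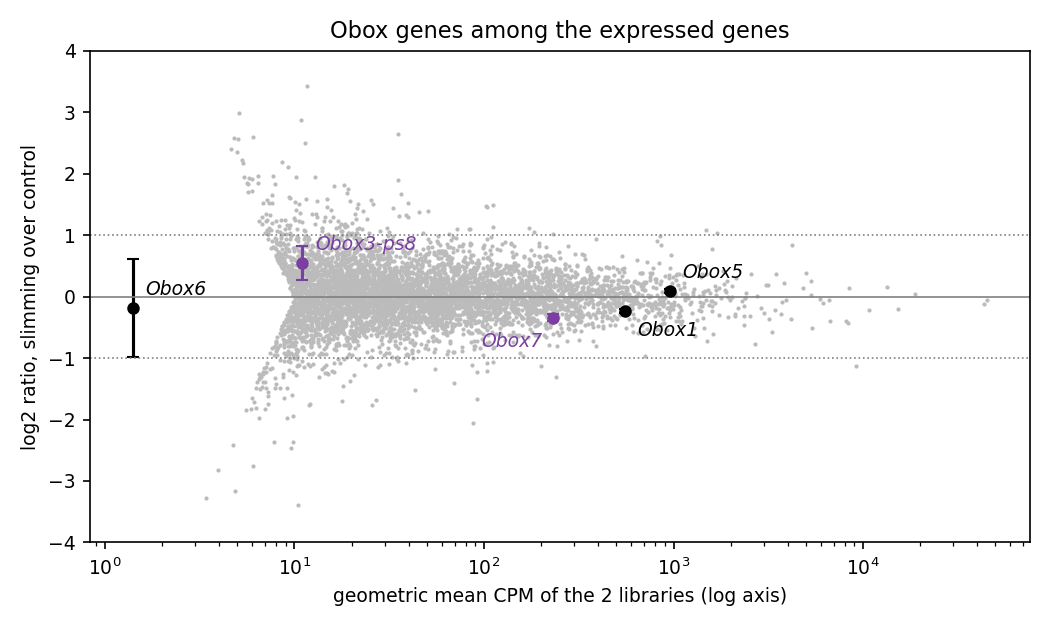
Log2 ratio of slimming over control against the geometric mean CPM of the libraries on a log axis, with expressed genes in grey, Obox members in black and the other Obox genes in purple, both with their 95% counting intervals. Obox1, Obox5 and Obox7 lie within the grey band at -0.24, 0.095 and -0.35; Obox6, which is below the level called expressed, has an interval of -0.98 to 0.61, and Obox2 and Obox3 are not drawn. Dotted lines mark 2-fold.

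The authors' deposited table marks genes at a p-value of 0.001, computed between 2 unreplicated libraries, and marks 35.9% of the 15263 genes with such a value. By the authors' deposited table, 2 of the 5 members, Obox1 and Obox5, are marked, as are Obox7 and Obox3-ps8. The scaled log2 ratios in the authors' deposited table are -0.20 for Obox1, 0.13 for Obox5 and -0.31 for Obox7. That mark compares libraries, not conditions.

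Summed over the 5 members, the mRNA was nearly level. The 5 members held 31709 counts in slimming oocytes and 30531 in control oocytes, or 0.151% of each library. Their sum had a log2 ratio of -0.026 (interval -0.049 to -0.0034). The sign turned to 0.0052 when the libraries were scaled by total count, so no direction can be given for the 5-member sum. The sum is less exposed than single genes to how reads of close copies were divided. With Obox7 and Obox3-ps8 included, the sums were 36313 counts in slimming oocytes and 35907 in control oocytes (log2 ratio -0.065, interval -0.086 to -0.043). This wider sum was also lower in slimming oocytes by library totals, with 1733 CPM against 1774 CPM in control oocytes.

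Within the 5-member sum, Obox5 held 65.9% of the counts in slimming oocytes and 60.6% in control oocytes, and Obox1 held 33.9% in slimming oocytes and 39.2% in control oocytes. Obox7 was then added as the other abundant gene of the family. Of the counts of Obox1, Obox5 and Obox7 together, Obox5 held 58.1% in slimming oocytes (95% Clopper-Pearson interval 57.6 to 58.6) and 51.9% in control oocytes (51.4 to 52.4). Obox1 held 29.9% in slimming oocytes (29.4 to 30.4) and 33.6% in control oocytes (33.1 to 34.1). Obox7 held 12.0% in slimming oocytes (11.7 to 12.3) and 14.6% in control oocytes (14.2 to 14.9). These shares do not depend on how the libraries are scaled. They are parts of the same sum, so a rise in the share of Obox5 lowers the others, and the 3 shifts are not separate results. How far the shares of other abundant genes shift between the libraries was not tested. There were 1.94 Obox5 counts per Obox1 count in slimming oocytes and 1.55 in control oocytes (log2 ratio 0.33, interval 0.28 to 0.38). Per Obox7 count there were 4.84 Obox5 counts in slimming oocytes and 3.56 in control oocytes (log2 ratio 0.44, interval 0.38 to 0.51). Obox1 and Obox7 kept nearer to each other, with 2.49 Obox1 counts per Obox7 count in slimming oocytes and 2.31 in control oocytes (log2 ratio 0.11, interval 0.041 to 0.18). Whether the division of shared reads or the amplification plays a part in these shares was not tested.

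**Figure D4:**
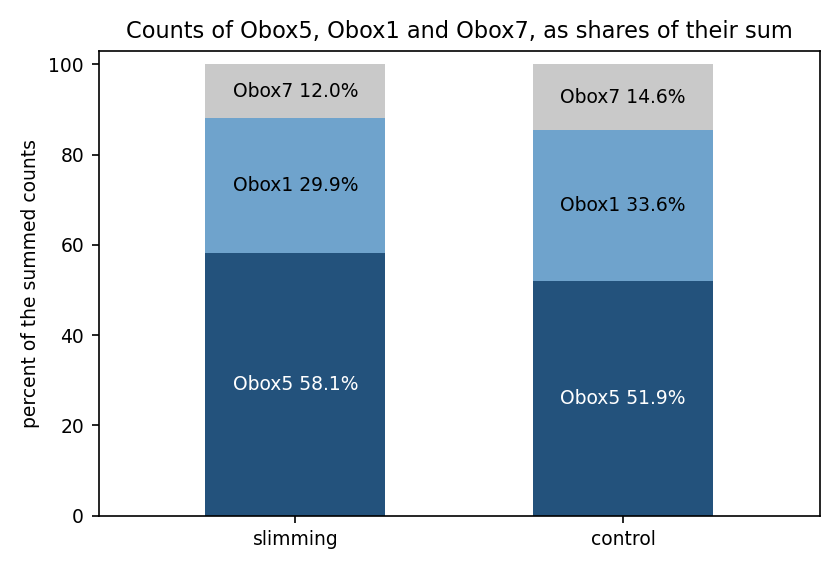
Percent of the counts of Obox1, Obox5 and Obox7 together that each gene held, as stacked bars with the slimming library left of the control library; no error is drawn. Obox5 held 58.1% in slimming oocytes and 51.9% in control oocytes, while Obox1 and Obox7 held less in slimming oocytes.

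Genes nearest to the expressed members in CPM over the 2 libraries were listed as a description of level only. Nearest to Obox1 were E2f1, a cell cycle transcription factor, with 509 CPM in slimming oocytes and 587 CPM in control oocytes, then Ube4b, a ubiquitin ligase, and Ubp1, a transcription factor. Nearest to Obox5 were Med10, a Mediator subunit, with 1030.0 CPM in slimming oocytes and 958 CPM in control oocytes, then Banp, a DNA-binding nuclear protein, and Haus4, a subunit of the spindle complex augmin. Their distances on the log2 scale ran between 0.0190 and 0.0485 for Obox1 and between 0.0801 and 0.107 for Obox5.

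Other homeobox genes of the germline and early embryo were set beside the family. Of 44 such genes, 39 were matched by symbol and 10 were expressed, of which 0 were 2-fold higher or more and 1 was 2-fold lower or more. The median log2 ratio was -0.063, beside 0.015 for all expressed genes. The most abundant was Satb1, a chromatin organizer, with 5471 counts in slimming oocytes and 5419 in control oocytes (log2 ratio -0.067). Zfhx4, a large zinc finger homeobox factor, had 23 counts in slimming oocytes and 215 in control oocytes, 9.70-fold lower, with a log2 ratio of -3.28 (interval -3.99 to -2.68). It was called expressed only through control oocytes, with 10.6 CPM there, just above the limit of 10 CPM, and 1.10 CPM in slimming oocytes. Tgif2, a homeobox repressor just inside the 2-fold limit, had 285 counts in slimming oocytes and 535 in control oocytes, 1.98-fold lower, with a log2 ratio of -0.99 (interval -1.20 to -0.78). Nobox, a homeobox factor needed for oocyte growth in the mouse, had 699 counts in slimming oocytes and 689 in control oocytes.

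Lists of factors of the oocyte and of the early embryo were described in the same way, and some genes stand in more than 1 list. Of 18 oocyte transcription factors, 17 were matched and 10 were expressed, 0 were 2-fold apart in either direction, and the median log2 ratio was -0.21. Sall4, a zinc finger factor of germ cells and the most abundant of them, had 26820 counts in slimming oocytes and 29608 in control oocytes (log2 ratio -0.22). Of 25 factors of zygotic genome activation, 24 were matched and 11 were expressed, with a median log2 ratio of -0.28, and 1 was 2-fold lower or more while 0 were as much higher. With genes down to 1 CPM included, 17 of them entered, of which 3 were 2-fold higher and 1 lower (23.5% together), with a median of -0.12. Among all 11010 genes at that filter, 18.4% were 2-fold apart. The median was thus negative under both filters, but the side with more 2-fold genes changed with the filter. The 2-fold lower gene among the 11 was Tfap2c, a transcription factor of the early embryo and trophoblast. It had 230 counts in slimming oocytes and 594 in control oocytes, 2.73-fold lower and with a log2 ratio of -1.45 (interval -1.68 to -1.23). Trim28, a corepressor that silences retroelements and the most abundant of this list, had 40586 counts in slimming oocytes and 46725 in control oocytes (log2 ratio -0.28).

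Among the other stored products of the egg the median ratio was close to that of all expressed genes. Of 30 maternal-effect genes, 27 were matched and 24 were expressed, 0 were 2-fold apart in either direction, and the median log2 ratio was 0.0075. H1foo, the linker histone of the oocyte and the most abundant, had 885632 counts in slimming oocytes and 909348 in control oocytes (log2 ratio -0.12). Of 23 transcripts of the 2-cell embryo, the stage at which Obox3 is known to be made, 13 were matched and 1 was expressed. This was Zfp560, a zinc finger gene, with 823 counts in slimming oocytes and 993 in control oocytes and a log2 ratio of -0.35.

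**Figure D5:**
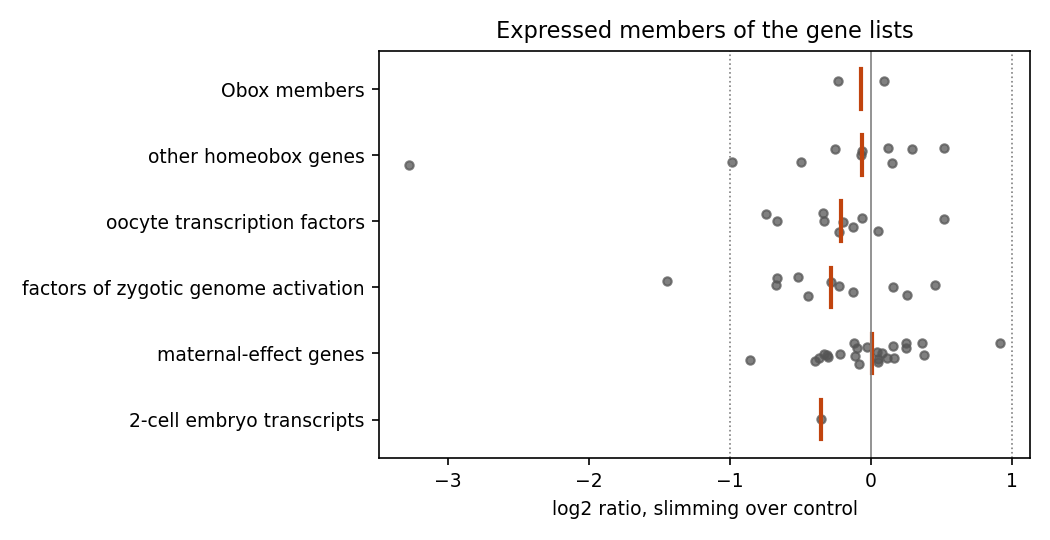
Log2 ratios of slimming over control for the expressed genes of each list, with the Obox members at the top, each point a gene and each orange bar a list's median, and with points shifted up or down at random for clarity. Points between the dotted lines differ by less than 2-fold, and Zfhx4 at -3.28 and Tfap2c at -1.45 lie outside. Zfhx4 was called expressed through the control library alone.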

How the data were processed

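Messenger RNA of 9 pooled oocytes per group was primed with oligo(dT), amplified for 18 and then 14 cycles and sequenced on a SOLiD 4 instrument, per the labels' protocols. Per the submitters' processing notes the build was mm9. Which aligner and counter were used, and how strand and multiply matching reads were handled, is not given in the sources used here. A raw count for each gene and library was deposited by the authors. Of 36227 genes, 18210 were left blank in both and read as no count. The authors also deposited 2 log2 ratios, a score (z-score) and a p-value with its q-values per gene, of which the second log2 ratio (scaled by the authors) and the mark at a p-value of 0.001 are quoted.

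From the counts, CPM was computed on library totals, and log2 ratios with 0.5 added to each count were scaled by TMM (edgeR 4.0.16, R 4.3.3), with a factor of 1.01 for slimming and 0.989 for control. DESeq2 1.42.0 size factors served as an alternative. No test was made with 1 library per group. Ratio intervals (95%) are exact Clopper-Pearson intervals of the slimming share of a gene's counts; those of ratios between 2 Obox genes use the normal approximation on the log odds. Intervals and floors cover counting error only. The total counts were 20947962 (slimming) and 20242289 (control). The calculation of ratios and intervals was run on simulated counts with counting error alone. That run cannot show how they behave with amplification or with reads shared between copies.

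Symbols, transcripts and coordinates came from GENCODE vM21 (GRCm38), matched by Ensembl identifier for 16913 of the 18017 genes with counts, and promoters from RefSeq (GRCm38.p6). Counts were made on another build, and no coordinate was converted. Coding sequences and promoters were aligned with MAFFT 7.526. Identity of the coding sequences stands in for the planned identity of the proteins. Python 3.11.15, numpy 2.4.6, scipy 1.17.1, pandas 2.3.3, Biopython 1.88 and matplotlib 3.10.9 were used. Members, lists and rules were chosen with earlier results of these data known. All genes of the deposited count table with an Obox symbol were named, and from each list the most abundant expressed gene and those at least 2-fold apart. For each expressed member, the 3 nearest genes in log2 CPM with a symbol that is not a predicted or clone name were also named. Nobox, Tgif2 and single marker genes were named beside the rule, with their values known.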

Additional observations from a re-analysis of the deposited data

How the results depend on the processing

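Total-count scaling, DESeq2 size factors and additions of 1 or 5 to each count kept the sign of every single Obox ratio, with Obox1 between -0.24 and -0.20, Obox5 between 0.095 and 0.13, Obox7 between -0.35 and -0.31, Obox6 between -0.18 and -0.15 and Obox3-ps8 between 0.54 and 0.58. With total-count scaling Obox5 stood at 0.13 and the 5-member sum at 0.0052, a change of sign; that sum was -0.065 over all Obox symbols and -0.23 without Obox5. Genes at least 2-fold apart numbered 267 (156 higher, 111 lower), but 2025 of 11010 (18.4%; 1038 higher, 987 lower) with a filter at 1 CPM and 6960 of 18017 (38.6%; 3186 higher, 3774 lower) with none, because more genes with few counts were included; without a filter lower calls outnumber higher ones. At 1 CPM the lists gave 4 of 18 other homeobox genes (0 higher, 4 lower), 1 of 16 oocyte factors, 4 of 17 factors of genome activation (3 higher, 1 lower) and 1 of 26 maternal-effect genes. Without a filter they gave 14 of 31 other homeobox genes (6 higher, 8 lower), 1 of 16 oocyte factors, 6 of 22 factors of genome activation (4 higher, 2 lower), 1 of 27 maternal-effect genes and 3 of 7 2-cell transcripts. Over merged exons Obox1 had 270.5 CPM per kb in slimming oocytes and 312 in control oocytes, and Obox5 had 467 in slimming oocytes and 428 in control oocytes. With 35-base words the shared percent was 67.6 for Obox1, 76.6 for Obox2, 28.6 for Obox3, 33.0 for Obox5, 10.9 for Obox6, 39.4 for Obox7 and 37.9 for Obox3-ps8, so the genes are harder to tell apart if reads were shorter. No paired analysis was possible because each group is 1 library. Depth does not resolve Obox2 or Obox3, and Obox6 is limited to changes outside its interval of -0.98 to 0.61.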

Other observations

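Some genes next to or inside the Obox cluster were read from the same table after their values were seen, as values with no explanation. Nlrp5-ps, a transcribed pseudogene inside the cluster (chr7:14530652-14622479, GRCm38), had 71 counts in slimming oocytes and 212 in control oocytes, 3.14-fold lower, with a log2 ratio of -1.65 (interval -2.07 to -1.26). Its sequence is related to Nlrp5, which had 9755 counts in slimming oocytes and 9419 in control oocytes, so reads of this pseudogene are uncertain. Crx, a homeobox gene of photoreceptors just beyond the cluster (chr7:15865947-15879968), had 0 counts in slimming oocytes and 23 in control oocytes, and the upper limit of its counting interval was a log2 ratio of -2.60. Selenow, a selenoprotein gene further on, had 683 counts in slimming oocytes and 703 in control oocytes (log2 ratio -0.12, interval -0.28 to 0.032). None of these differences has a replicate behind it.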
